A study of Homo sapiens with 6 samples.

Results

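Cadherins and synaptic adhesion molecules are cell-surface proteins through which neurons hold to each other, guide their axons and match the sides of a synapse. The set described here holds 60 of the 17687 genes measured. It was drawn by symbol and takes every CDH gene with a number, every symbol that starts with CNTN, NRXN, CADM, LRRTM, LRFN, TENM or NCAM, and NLGN1, NLGN3, L1CAM, CHL1, NRCAM and NFASC. The CNTN prefix also brings in the contactin-associated proteins. Of the 60 genes, 59 code for a protein and 1, CNTNAP3P2, is a transcribed pseudogene. Each was measured by 1 probe set. Other genes that the same symbols would take are not analysed here.

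RNA came from SH-SY5Y, an established line of human neuroblastoma cells with sympathetic traits. Expression was measured on Affymetrix whole-transcript arrays in 3 samples treated with 15EN, a label that is not spelled out, and in 3 vehicle controls (VC). The treatment text is the same for all 6 samples: differentiation with all-trans retinoic acid (atRA) and 96 h of treatment with a bioactive compound at 15 µM. By this text the controls also had atRA, but the same text gives them the compound, which their label as vehicle controls goes against. The series title names the compound as eurycomanone, isolated from roots of Eurycoma longifolia. The titles tie each replicate number to 1 passage of the line (33, 34 or 35), with 1 array of each group, while the longer descriptions name passage 33 for every sample. The line is a single tumour-derived culture, and the labels do not say that the arrays of a group came from separately grown cells. The p-values below therefore reflect array-to-array spread, part of which may be technical.

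As background, classical cadherins bind the same or a related cadherin on the next cell through calcium-dependent ectodomains, and anchor to actin through catenins. The L1 family, contactins and NCAMs are immunoglobulin-domain proteins of axons and growth cones. Neurexins sit mainly on the presynaptic side and bind neuroligins and LRRTM proteins across the cleft, LRFN and CADM proteins are further synapse organizers, and teneurins bind latrophilins. Neuroblastoma cells are known for abundant NCAM1 and N-cadherin (CDH2).

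The values are log2 signals as deposited, 1 per gene and array, and carry no detection calls. The 90th percentile of 612 negative control probe sets averaged 7.47 in the 15EN arrays, 7.78 in the VC arrays and 7.63 over all 6. A gene whose mean lies below it is called dim here, which does not mean absent, and the size of a difference is uncertain where a group is dim. The array labelled 15EN replicate 3 stood apart. It correlated with the other 15EN arrays at Pearson's r of 0.979 and 0.980, against 0.991 for 15EN replicates 1 and 2, over all probe sets. Results are therefore also given without it. The hybridization controls were dimmer in 15EN (mean log2 signal 10.43 in 15EN and 11.30 in VC). When arrays were scaled to equal controls, every difference rose by a constant and the median of all genes to 0.88, against 0.01 as deposited, so directions below are relative to the median gene.

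Most sympathetic neuroblast markers had signal in both groups, such as GATA3 at 12.80 in 15EN and 12.72 in VC, and HAND2 at 12.53 in 15EN and 12.44 in VC. Of the 17 measured, 3 were dim in both groups, namely TH, CHGA and NEFL. Of 17 such markers measured, 0 were higher and 9 lower in 15EN, among them NEFM (-2.69), STMN2 (-1.72) and DBH (-1.59), as log2 differences. Their summed signal was 17.21 to 17.39 in 15EN and 17.71 to 17.90 in VC (log2). Of 17 fibroblast and matrix markers, 0 were higher and 8 lower, such as COL5A1 (-2.64), COL6A1 (-1.93) and FBLN1 (-1.63), with a summed signal of 14.88 to 15.59 in 15EN and 15.55 to 15.81 in VC. Of 25 markers of substrate-adherent neuroblastoma cells, 5 were higher, such as FOSL1 (3.81) and YAP1 (1.43), and 7 lower, such as TNC (-3.10) (summed 16.44 to 17.11 in 15EN and 17.58 to 17.77 in VC). Of 10 markers of Schwann cells and other glia, 0 passed the threshold in limma, and 9 of the 10, GFAP and SOX10 among them, were dim in both groups (summed 10.14 to 10.79 in 15EN and 10.86 to 11.28 in VC). DBH, COL5A1 and TNC were dim in 15EN and YAP1 in VC. The part of these shifts in the results below was not tested. In bulk RNA, fewer cells of a type and less RNA per cell cannot be told apart.

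The adhesion genes that passed the test all fell. Of 60, 13 were lower and 0 higher in 15EN at an adjusted p under 0.05 (limma, Benjamini-Hochberg over all 17687 genes). The background was 9.09% of all genes called lower and 12.3% called higher, and the share of the adhesion genes called lower was 21.7%. At an unadjusted p under 0.05, 16 were lower and 1 higher, against 14.0% lower and 18.2% higher of all genes. Of the 13, 11 fell by at least 1 on the log2 scale. The median difference was -0.22 over the 60 genes and 0.01 over all genes. In 17 of the 60 genes (28.3%) all 3 arrays of 15EN lay below all 3 of VC, against 16.6% of all genes. The fit used here left out the pairing of arrays by replicate number. A fit blocked on that number called 13 adhesion genes lower and 1 higher (LRRTM2), and 1788 of all genes lower and 2415 higher.

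The genes were also divided by signal, with a mean that includes both groups, so that a gene's change bears on its side. Of the 15 adhesion genes whose mean over all 6 arrays lay above the negative control level, 9 were called lower, where 14.6% of the 8901 genes above that level were. In 8 of the 9 each group's mean lay above the level of its own arrays, and for NLGN3 only that of VC did. The median difference of the 15 was -0.84, against 0.11 for all genes above it. Of the 45 below it, 4 (8.89%) were called lower, where 3.52% of the 8786 genes below it were, and their median was -0.14, against -0.03. The called genes came from 10 of the 11 families, with 1 or 2 genes in each, and in each of the 10 at least 1 relative did not pass.

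**Figure D1:**
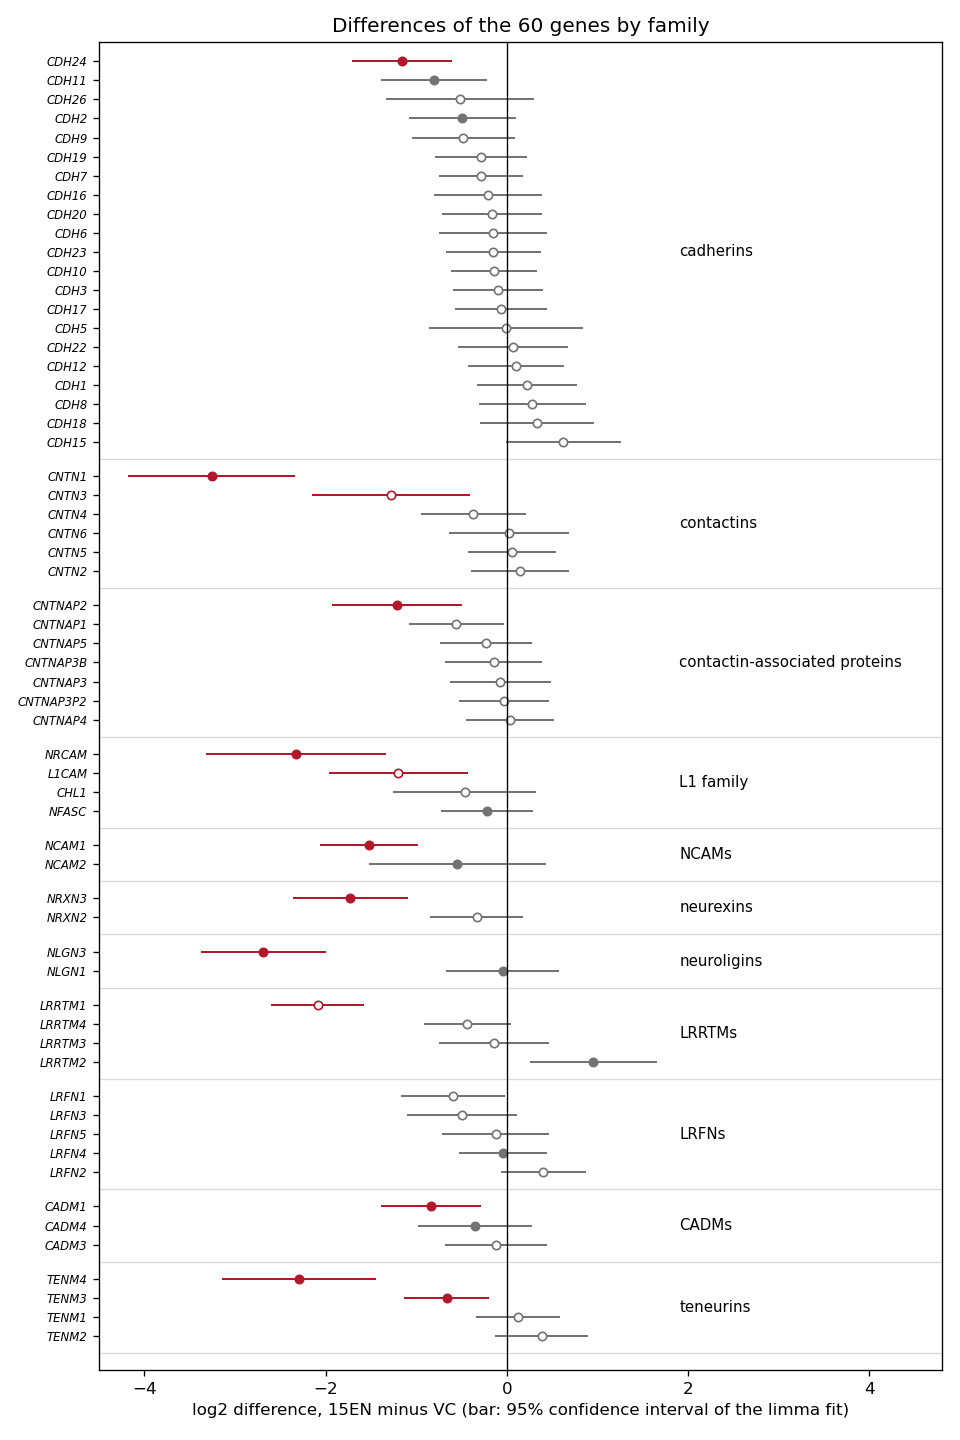
Log2 difference (15EN minus VC, x axis) of each of the 60 genes, grouped by family down the page, with the 95% confidence interval of the limma fit as a bar (n = 3 arrays per group). Red marks the 13 genes past adjusted p 0.05, all of them left of 0, and open circles mark genes dim in both groups.

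**Figure D2:**
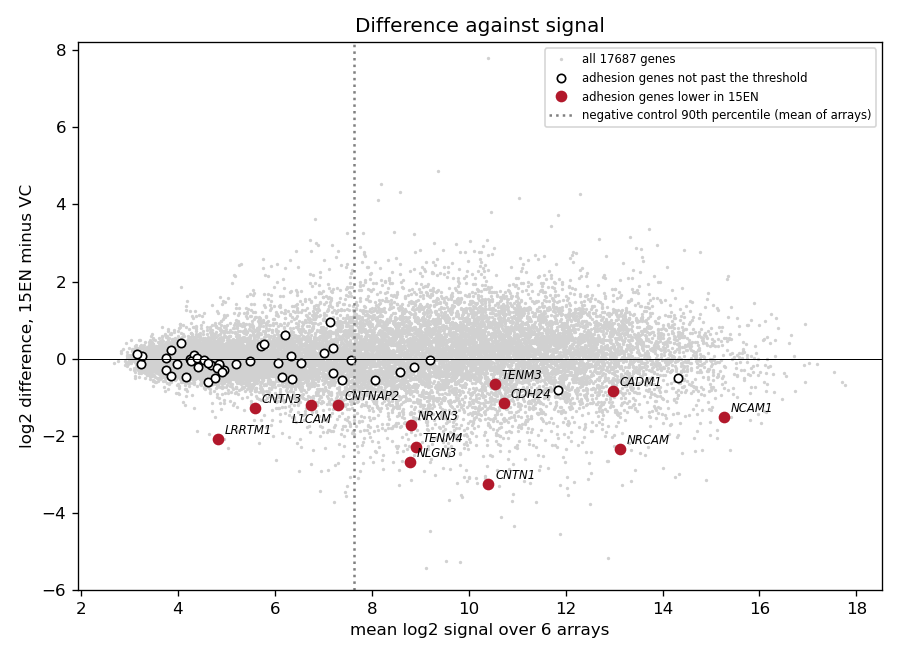
Log2 difference (15EN minus VC, y axis) against mean log2 signal over 6 arrays (x axis) for all 17687 genes in grey, adhesion genes past the threshold in red and the other adhesion genes as open circles. Of the 15 adhesion genes right of the dotted negative control level (7.63), 9 are red.

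The bases upstream of the RefSeq start are shown for NRCAM, NLGN3 and TENM4, because these are the called genes whose upstream window holds the E-box letters CACCTG, bound by ZEB and SNAI repressors, whose genes are described further on. The sequences are from RefSeq (GRCh38.p14), 250 bases before the annotated start, 5′ to 3′ on the gene's strand. Capitals mark the E-box (CACCTG or its reverse complement CAGGTG), the GC box (GGGCGG or CCGCCC) and the CCAAT box (CCAAT or ATTGG), searched on both strands, and no marked run overlaps another here.
NRCAM (chr7:108456437-108456686, minus strand): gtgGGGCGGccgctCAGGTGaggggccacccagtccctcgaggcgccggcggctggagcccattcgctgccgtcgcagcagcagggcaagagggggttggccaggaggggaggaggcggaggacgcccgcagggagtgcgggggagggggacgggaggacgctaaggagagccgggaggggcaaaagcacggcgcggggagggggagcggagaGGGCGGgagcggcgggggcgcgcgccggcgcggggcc
NLGN3 (chrX:71144591-71144840, plus strand): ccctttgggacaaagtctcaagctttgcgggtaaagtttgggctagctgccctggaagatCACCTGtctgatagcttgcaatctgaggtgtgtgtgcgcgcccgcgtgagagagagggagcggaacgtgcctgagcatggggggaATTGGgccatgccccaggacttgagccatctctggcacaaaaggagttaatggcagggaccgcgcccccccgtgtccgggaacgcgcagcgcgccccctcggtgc
TENM4 (chr11:79441031-79441280, minus strand): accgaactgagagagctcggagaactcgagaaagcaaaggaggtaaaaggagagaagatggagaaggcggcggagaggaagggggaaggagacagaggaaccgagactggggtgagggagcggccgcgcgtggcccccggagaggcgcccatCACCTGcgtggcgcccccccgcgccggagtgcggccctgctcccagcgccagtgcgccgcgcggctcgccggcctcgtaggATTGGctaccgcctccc
The NRCAM window holds the E-box letters in 1 place and the GC box in 2, and NLGN3 and TENM4 each hold 1 E-box and 1 CCAAT box. Of the 60 genes, 44 had an upstream window. The called genes CDH24, NCAM1 and CADM1 had none. The E-box letters were in 3 of 10 windows of called genes (30.0%), 3 of 34 windows of the others (8.82%) and 17.5% of all 27305 windows of the same length. Those others were CNTNAP3B, NFASC and CADM4. The windows of the called genes CNTN1, CNTN3, CNTNAP2, L1CAM, NRXN3, LRRTM1 and TENM3 lacked the letters, and CNTN1 had the largest fall of the 60 genes. The GC box was in 5 of 10 windows of called genes, 44.1% of the others and 42.3% of all, and the CCAAT box in 3 of 10, 32.4% and 33.0%. TATAAA and the CRE letters TGACGTCA were in 0 of the 10 and in 11.1% and 1.77% of all windows. These matches describe letters and not bound sites, and the arrays do not show which start was used. A part of ZEB or SNAI repressors in the falls was not tested.

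Among the contactins, GPI-anchored immunoglobulin proteins of axons, 2 of 6 fell. CNTN1, which joins CNTNAP1 at paranodal junctions, had log2 signals of 8.86, 7.89 and 9.59 in 15EN, against 12.62, 11.91 and 11.58 in VC. All 15EN arrays lay far below all VC arrays, with 15EN replicate 3 nearest to the controls. The difference was -3.26 ± 0.41 (SE, adjusted p = 0.000598), or 9.57-fold lower in 15EN, the largest change of the 60 genes. CNTN3, a neural contactin, had 5.67, 4.41 and 4.76 in 15EN, against 7.0, 5.91 and 5.77 in VC and fell by 1.28 ± 0.39 (adjusted p = 0.0396) at dim levels in both groups, close to the threshold. Its call held without 15EN replicate 1 and was lost without any other array (adjusted p = 0.0515 to 0.15). CNTN2, CNTN4, CNTN5 and CNTN6 were dim in both groups and did not pass, with differences of 0.14, -0.37, 0.06 and 0.02.

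Of the 7 contactin-associated genes, 1 fell. CNTNAP2, which gathers potassium channels beside the paranode, had 6.07, 7.08 and 6.95 in 15EN, against 7.42, 8.26 and 8.06 in VC. Its values in 15EN were below the negative control level and those in VC about at it, and the groups did not overlap. It fell by 1.21 ± 0.32 (adjusted p = 0.0212), a call lost without 15EN replicate 1 or VC replicate 2 or 3 (adjusted p = 0.072, 0.101 and 0.0867). CNTNAP1, the partner of CNTN1, differed by -0.56 ± 0.23 without passing (adjusted p = 0.12), although its arrays did not overlap either. CNTNAP3, CNTNAP3B and CNTNAP3P2 are near-identical copies, so their values are uncertain per gene. They and CNTNAP4 and CNTNAP5 differed by -0.23 to 0.03 at dim levels, and 0 of the 5 passed (0 also at an unadjusted p under 0.05).

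The L1 family consists of transmembrane relatives of the contactins that bind ankyrin and promote neurite growth. NRCAM had 11.12, 11.59 and 13.18 in 15EN, against 14.02, 14.38 and 14.48 in VC. The VC arrays were tightly grouped while 15EN replicate 3 lay well above the other 15EN arrays, which made NRCAM the most variable of the 60 genes in 15EN (SD 1.07). It fell by 2.33 ± 0.44 (adjusted p = 0.00452), and the difference was -2.94 without 15EN replicate 3 (adjusted p = 1.93e-05). L1CAM was dim in both groups, with 5.79, 5.64 and 7.03 in 15EN, against 7.53, 7.21 and 7.32 in VC, and its 15EN replicate 3 likewise lay nearest to the controls. Its difference was -1.20 ± 0.34 (adjusted p = 0.0294), and -1.64 without 15EN replicate 3 (adjusted p = 0.000225), while leaving out any other array lost the call (adjusted p = 0.0782 to 0.112). CHL1, the close homolog of L1, was dim and did not pass (-0.47 ± 0.35, adjusted p = 0.418). NFASC, which encodes neurofascin of the axon initial segment, had signals above the negative control level and a difference of -0.22 ± 0.23 (95% interval -0.72 to 0.28, adjusted p = 0.573).

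NCAM1, the neural cell adhesion molecule and a surface marker of neuroblastoma, had 14.17, 14.93 and 14.40 in 15EN, against 16.05, 16.08 and 15.93 in VC. The VC arrays were closely grouped and every 15EN array lay well below them. NCAM1 fell by 1.52 ± 0.24 (adjusted p = 0.0018), 2.87-fold, and this call held without any 1 array (adjusted p = 0.00124 to 0.0142). It remained a gene of strong signal in 15EN (14.50 ± 0.39 in 15EN and 16.02 ± 0.08 in VC, SD, n = 3). Its relative NCAM2 differed by -0.55 ± 0.43 and did not pass (adjusted p = 0.446), with log2 signals of 8.47, 7.41 and 7.52 in 15EN, against 9.33, 8.19 and 7.53 in VC.

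Genes from both sides of the synapse fell. NRXN3, a presynaptic neurexin, had 7.63, 8.16 and 8.07 in 15EN, against 9.21, 10.18 and 9.66 in VC and fell by 1.73 ± 0.28 (adjusted p = 0.00206). NRXN2 was dim and differed by -0.34 ± 0.23 (adjusted p = 0.358). NLGN3, a postsynaptic neuroligin, had 7.5, 7.85 and 7.0 in 15EN, against 10.64, 10.13 and 9.65 in VC. Its VC arrays were clearly above the negative control level and its 15EN arrays about at it, so the difference of -2.69 ± 0.30 (6.45-fold lower in 15EN, adjusted p = 0.000373) has an uncertain size. NLGN1, the neuroligin of excitatory synapses, overlapped between the groups, at 9.11, 9.72 and 8.69 in 15EN, against 9.02, 9.39 and 9.24 in VC. Its difference was -0.05 ± 0.28 (95% interval -0.66 to 0.57, adjusted p = 0.936). The difference between the NLGN3 and NLGN1 changes was not tested, but their 95% intervals (-3.37 to -2.01 for NLGN3) do not meet.

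Among the LRRTM genes, leucine-rich repeat partners of neurexins on the postsynaptic side, LRRTM1 had 3.57, 3.96 and 3.84 in 15EN, against 5.96, 6.08 and 5.59 in VC. The groups were far apart relative to their spread, at signals dim in both. Its difference of -2.09 ± 0.23 had the lowest adjusted p of the 60 genes (0.000313), and its size is uncertain. LRRTM2 had 7.86, 8.06 and 6.95 in 15EN, against 7.02, 6.63 and 6.37 in VC, the highest positive difference of the set (0.95 ± 0.31), and did not pass as analysed (adjusted p = 0.0534). It passed with quantile normalization, a filter on dim genes, array weights and without both arrays of number 3 (adjusted p = 0.0474, 0.0414, 0.00294 and 0.00973). It also passed in a fit blocked on passage (adjusted p = 0.0173), and without 15EN replicate 3 its difference was 1.29 (adjusted p = 0.0021). It did not pass without any other single array, with differences down to 0.73 (adjusted p = 0.0662 to 0.195), nor with median centring (adjusted p = 0.0539) or without both arrays of number 1 or 2 (adjusted p = 0.188 and 0.374). Nor did it pass with a trended robust prior (adjusted p = 0.0586) or after removal of a brightness trend (adjusted p = 0.0504). LRRTM3 and LRRTM4 were dim, at -0.14 and -0.44. Of the 5 LRFN genes, postsynaptic proteins of which several bind PSD-95, 0 passed (1 at an unadjusted p under 0.05). LRFN1, dim in both groups, differed by -0.60 ± 0.25 (adjusted p = 0.129) and by -0.79 without 15EN replicate 3 (adjusted p = 0.0246), and did not pass without any other array (adjusted p = 0.145 to 0.382). LRFN2, LRFN3, LRFN4 and LRFN5 differed by 0.40, -0.49, -0.04 and -0.12.

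CADM1, a homophilic synaptic immunoglobulin protein also called SynCAM 1, had 12.17, 12.53 and 12.97 in 15EN, against 13.49, 13.29 and 13.41 in VC. The groups did not overlap, but 15EN replicate 3 was near the controls. It fell by 0.84 ± 0.24 (adjusted p = 0.0328), and the difference was -1.05 without 15EN replicate 3 (adjusted p = 0.00349). Leaving out any other array lost the call (adjusted p = 0.0842 to 0.121). CADM3 (-0.12, dim) and CADM4 (-0.35, above the negative control level) did not pass.

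The teneurins are large transmembrane proteins that bind latrophilins across the synapse, and 2 of 4 fell. TENM4 had 7.21, 7.76 and 8.33 in 15EN, against 10.79, 9.38 and 10.01 in VC and fell by 2.29 ± 0.38 (adjusted p = 0.00224), 4.9-fold. Its mean in 15EN (7.77) was only a little above the negative control level (7.47), and 15EN replicate 1 lay below that of its own array (7.51). The size of the TENM4 fall is therefore uncertain too. The same-numbered differences of TENM4 ran from -3.58 in replicate 1 to -1.62 in replicate 2. TENM3 had 10.12, 10.11 and 10.42 in 15EN, against 10.78, 10.91 and 10.95 in VC. The fall was the smallest of those called (-0.67 ± 0.20, adjusted p = 0.0416), and the call was lost without any 1 array except 15EN replicate 3 (adjusted p = 0.0858 to 0.135). TENM1 and TENM2 were dim in both groups and differed by 0.12 and 0.38 without passing.

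Of the 21 cadherins, 1 fell (4.76%, against 9.09% of all genes) and 0 rose, with a median difference of -0.15. Outside the cadherins, 12 of the 39 adhesion genes fell (30.8%), with a median of -0.35. The 2 groups of genes differ in signal. Below the negative control level lay 18 of the 21 cadherins, with 0 called, and 27 of the 39 others, with 4 called. Above it lay 3 cadherins, with 1 called, and 12 of the others, with 8 called. Over all genes 3.52% of those below that level and 14.6% of those above it were called lower. CDH24, a type II cadherin that binds catenins, had 10.25, 10.31 and 9.87 in 15EN, against 11.28, 10.97 and 11.66 in VC. The groups did not overlap, and here 15EN replicate 3 was the lowest array and not the one nearest the controls. CDH24 fell by 1.16 ± 0.24 (adjusted p = 0.0076). CDH11, a type II cadherin of mesenchymal and neural cells, had 10.93, 11.56 and 11.83 in 15EN, against 12.40, 12.12 and 12.21 in VC and missed the threshold by little (-0.80 ± 0.26, adjusted p = 0.0511). It passed without 15EN replicate 3 (adjusted p = 0.00865) and after quantile normalization (-0.90, adjusted p = 0.0326). With median centring, a filter on dim genes, array weights, a trended robust prior or the brightness trend removed it passed as well (adjusted p = 0.00723 to 0.0463). It did not pass in the fit blocked on passage (adjusted p = 0.0504) or without any other single array (adjusted p = 0.0917 to 0.174). Without both arrays of 1 number it passed for number 3 only (adjusted p = 0.0258). Scaled to equal hybridization controls it did not pass (0.06, adjusted p = 0.85).

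CDH2, which encodes N-cadherin, the main classical cadherin of neurons, had 13.68, 14.39 and 14.16 in 15EN, against 14.19, 14.77 and 14.75 in VC. The arrays of the groups overlapped and the difference of -0.49 ± 0.26 did not pass (95% interval -1.07 to 0.09, adjusted p = 0.231). Each 15EN array lay below the VC array of the same passage, but CDH2 did not pass in the fit blocked on passage either. CDH1, which encodes the epithelial E-cadherin, was far below the negative control level in all arrays (3.98 ± 0.12 in 15EN and 3.76 ± 0.39 in VC) and differed by 0.22 ± 0.24 (adjusted p = 0.601). CDH15, the M-cadherin gene of muscle, was dim with the highest positive difference among the cadherins (0.62 ± 0.28, adjusted p = 0.158). CDH2, CDH11 and CDH24 were the only 3 of the 21 cadherins with a mean signal above the negative control level. The remaining 16 cadherins, all dim in both groups, differed by -0.52 (CDH26) to 0.33 (CDH18), with CDH3, the P-cadherin gene, at -0.10. At such signals a change in these genes may have gone undetected, and no limit of detection was computed. In the order of protein-coding genes along the chromosomes, 9 pairs of these genes are direct neighbours, such as CDH8 with CDH11, CDH1 with CDH3 and NFASC with CNTN2, and 0 of the 9 pairs held a called gene.

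**Figure D3:**
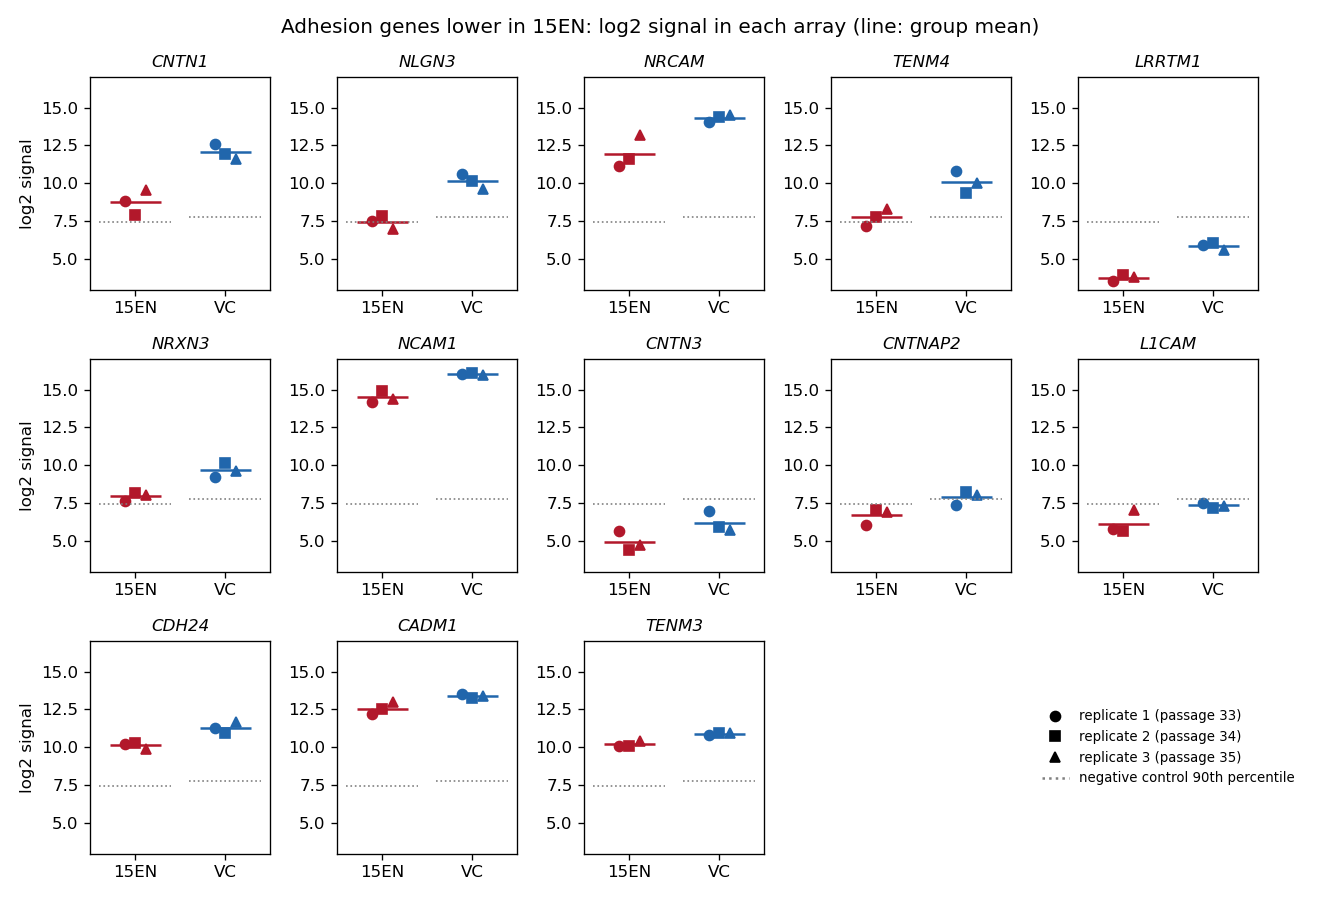
Log2 signal (y axis) in each of the 3 arrays of 15EN and the 3 of VC for the 13 genes that passed, with a marker shape per replicate number, the group mean as a line and the 90th percentile of negative controls as a dotted line. In every panel the 15EN arrays lie below the VC arrays, and CNTN3, L1CAM and LRRTM1 lie below the dotted line in both groups.

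In all 13 called genes the arrays of the groups did not overlap, so every difference between arrays of 1 passage was negative. The median of these differences was -1.73 in replicate 1, -1.57 in replicate 2 and -1.53 in replicate 3, for the 13 genes, and that of all 60 was -0.39, -0.28 and -0.29. The fall was smallest in replicate 3 for 9 of the 13 genes and in replicate 2 for the other 4. Signals of 15EN replicate 3 were the highest of the 15EN arrays in 6 of the 13, namely CNTN1, NRCAM, L1CAM, CADM1, TENM3 and TENM4, where the same held for 52.1% of all genes called lower. Without 15EN replicate 3, 14 adhesion genes were lower and 1 higher, with CDH11, LRFN1 and LRRTM2 gained and CNTN3 lost (adjusted p = 0.0515). Calls over all genes also became more frequent without it, 12.7% lower and 18.2% higher. Of the 13 calls, 8 held without any 1 array, those of CNTN1, NRCAM, NCAM1, NRXN3, NLGN3, LRRTM1, TENM4 and CDH24. The count was 8 without VC replicate 2 or 3. With arrays scaled to equal hybridization controls, 30 adhesion genes were higher and 7 lower, and 12150 of all genes were higher and 437 lower. The 7 were the first 7 of the 8 just named, at -2.39 (CNTN1) to -0.65 (NCAM1) to be read against the median of 0.88.

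**Figure D4:**
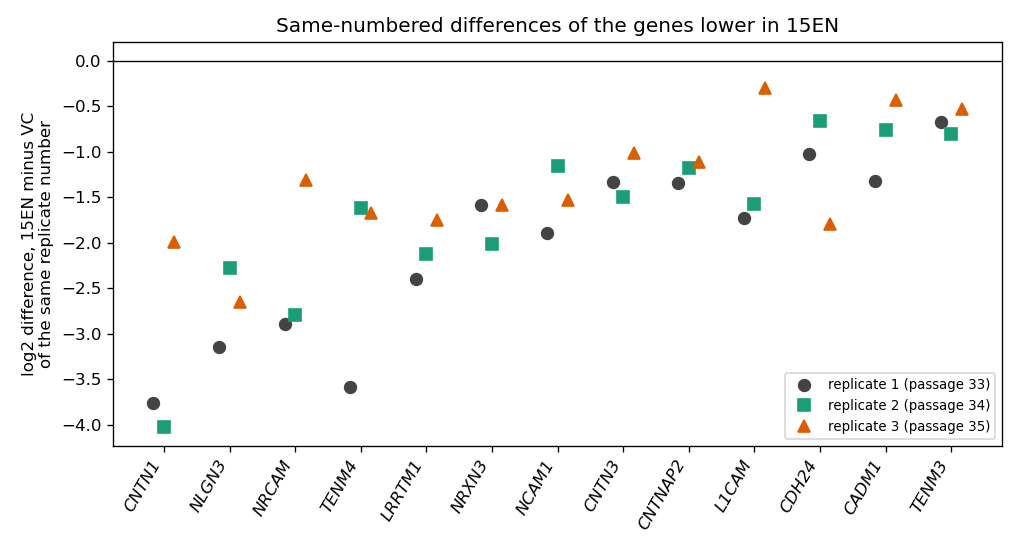
Log2 difference between 15EN and VC arrays of the same replicate number (y axis) for each of the 13 called genes (x axis), with a marker per passage. All points lie below 0, as they must where groups do not overlap, and replicate 3 has the smallest fall in 9 of the 13 genes.

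Genes that work with these molecules were compared as 7 lists of partners from textbook knowledge. The lists were written with earlier results of these data known, so their shares are a description only. Of 168 genes, 148 were measured, with 31 of them lower (20.9%) and 10 higher (6.76%). These totals count each gene once, while the latrophilin genes stand in more than 1 list. The counts below stand against 9.09% lower and 12.3% higher over all genes. Among 15 repressors of E-cadherin and regulators of epithelial state, 1 was higher and 2 lower (13.3%, near the share over all genes; median -0.18, against 0.01 over all genes). ZEB2, a zinc-finger repressor that binds E-boxes, rose to 13.47, 13.79 and 13.08 in 15EN, against 11.39, 11.19 and 10.86 in VC. Its groups were widely separated (2.30 ± 0.25, adjusted p = 0.000324). TCF3, an E-box-binding E protein, and SNAI2, the Slug repressor, fell, with differences of -1.30 ± 0.22 and -0.73 ± 0.21 (adjusted p = 0.00292 and 0.033). Their relatives ZEB1 (0.78 ± 0.25, adjusted p = 0.0533) and SNAI1 (-0.61 ± 0.29, adjusted p = 0.185), above the negative control level in both groups, did not pass. Nor did SNAI3 (-0.23), which was dim.

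Among 11 partners of teneurins and genes of NCAM modification and signalling, 1 was higher and 4 lower (median -0.41). ST8SIA2, a polysialyltransferase that modifies NCAM1, had 6.86, 6.85 and 6.69 in 15EN, against 10.15, 9.14 and 9.67 in VC. It fell by 2.85 ± 0.27 (adjusted p = 0.000202), and since its 15EN signals were dim the size is uncertain. The latrophilin genes ADGRL1 and ADGRL2, whose products bind teneurins, fell, with differences of -0.99 ± 0.29 and -1.02 ± 0.23 (adjusted p = 0.0334 and 0.0113). The growth factor receptor gene FGFR2 fell by 0.66 ± 0.21 (adjusted p = 0.0471). GFRA1, a GDNF co-receptor that also acts with NCAM1, had 9.29, 8.88 and 9.49 in 15EN, against 6.38, 6.48 and 6.48 in VC, a rise of 2.77 ± 0.22 (adjusted p = 0.00013) whose size is uncertain because its VC signals were dim. Sizes are likewise uncertain for the genes below that were dim in VC (DLG3), in 15EN (NLGN2 and IGSF8) or in both groups (CBLN2, DLG2, IQSEC2 and IGSF9).

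Partners of neurexins and neuroligins had 2 higher and 7 lower of 28 (median -0.14). The neuroligin genes outside the set fell, NLGN4X with a difference of -1.67 ± 0.22 and NLGN2, the neuroligin of inhibitory synapses, with -1.5 ± 0.26 (adjusted p = 0.000669 and 0.00312). CLSTN1, which encodes the cadherin-related calsyntenin 1, had 9.99, 10.65 and 9.999 in 15EN, against 12.35, 12.37 and 12.66 in VC and fell by 2.24 ± 0.24 (adjusted p = 0.000324), and the adaptor gene APBA2 fell by 1.28 ± 0.28. CBLN2, a secreted cerebellin that binds neurexins, rose by 1.11 ± 0.24 (adjusted p = 0.00805) at dim levels in both groups. Of 18 postsynaptic scaffolds, 2 were higher and 3 lower (median -0.09). DLG3 rose by 1.33 ± 0.35 and GPHN, the gephyrin of inhibitory synapses, by 0.80 ± 0.24, while DLG2, IQSEC2 and MAGI3 differed by -1.61, -0.83 and -0.73 (adjusted p from 0.0229 to 0.042). Each of these 5 calls was lost without at least 3 of the 6 arrays, and the count of called scaffolds was 0 without VC replicate 2 and 1 without any other VC array or 15EN replicate 1 or 2.

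Of 24 catenins and junction anchors, 1 was higher and 4 lower (median -0.13). NECTIN1, an immunoglobulin protein of adherens junctions, fell by 1.75 ± 0.22 (adjusted p = 0.000569). CTNNA1, which links cadherins to actin, and the actinin genes ACTN4 and ACTN1 also fell, with differences of -0.76 ± 0.21, -1.32 ± 0.30 and -0.74 ± 0.23. The α-catulin gene CTNNAL1 rose by 1.65 ± 0.34 (adjusted p = 0.00638). Of 21 anchors and proteases of the L1 family, 2 were higher and 6 lower (median -0.24). ADAM10, a sheddase of L1CAM and N-cadherin, fell by 1.65 ± 0.21 (adjusted p = 0.000587), and moesin (MSN), the semaphorin co-receptor NRP1 and the spectrin gene SPTBN1 differed by -1.9 ± 0.39, -1.68 ± 0.38 and -0.80 ± 0.21. The γ-secretase subunit PSENEN rose by 0.82 ± 0.22. Other synaptic adhesion genes had 1 higher and 7 lower of 34 (median -0.14). IGSF8, LRRC4B, IGSF9B and IGSF9 fell, with differences of -1.85 ± 0.26, -1.55 ± 0.22, -1.45 ± 0.24 and -1.25 ± 0.22, and ephrin-B2 (EFNB2) rose by 2.74 ± 0.24, with 13.58, 14.01 and 13.19 in 15EN, against 10.97, 10.83 and 10.77 in VC. Without 1 array the call of CTNNA1 was lost in 4 cases, of ACTN1 in 4, of ACTN4 in 2, of SPTBN1 in 4, of PSENEN in 5, of NRP1 in 1, of SNAI2 and FGFR2 in 5 each, of ADGRL1 in 3 and of ADGRL2 in 1, and the total of 41 partner calls became 54 without 15EN replicate 3 and 21 without VC replicate 2. It was 22 without VC replicate 3 and 27 without VC replicate 1 or 15EN replicate 1 or 2. With the same control scaling, 79 partners were higher and 8 lower.

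**Figure D5:**
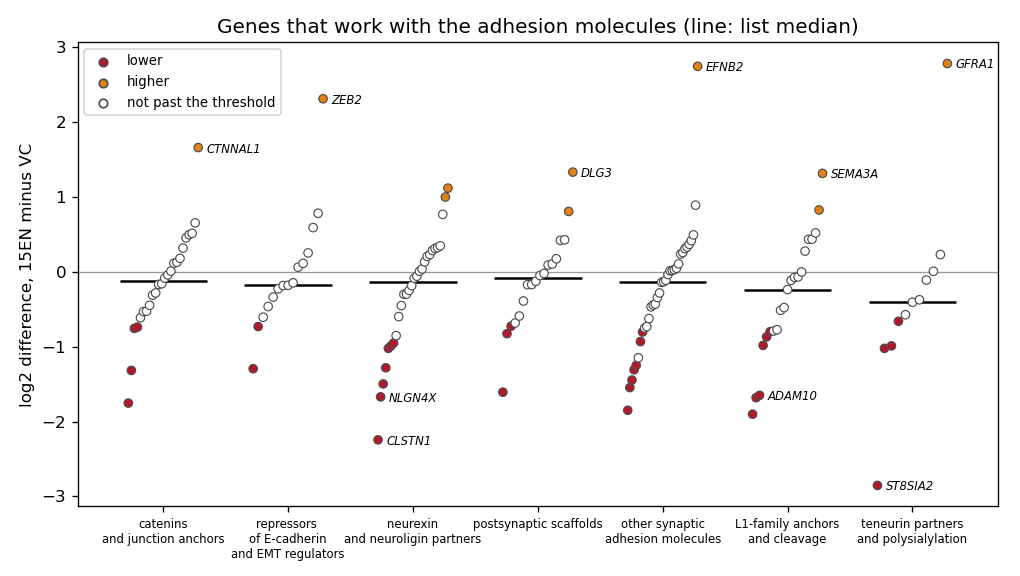
Log2 difference (15EN minus VC, y axis) of each measured gene in the 7 partner lists (x axis), in rising order within a list, with the list median as a line. Red marks genes lower and orange genes higher at adjusted p 0.05, with ZEB2 (2.30) and EFNB2 (2.74) among the genes higher in 15EN. GFRA1 (2.77, dim in VC) and ST8SIA2 (-2.85, dim in 15EN) have uncertain sizes.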

How the data were processed

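The authors deposited 1 table of log2 signals per probe set and array, made with the Transcriptome Analysis Console per the submitters' processing notes. Version, summarization, normalization and genome build: not given in the sources used here. That values are log2 was judged from their range (2.20 to 18.8). Of 24351 probe sets, 2903 are controls, 17709 have a single symbol in GEO's platform annotation, 3739 are unnamed and 0 have several. All 17709 Entrez identifiers matched RefSeq (GRCh38.p14). The probe set of highest mean was kept per gene, with 22 set aside and 17687 genes left, and no filter on dim genes was applied. Precision is limited by the 3 arrays per group.

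Differences were tested in limma 3.58.1 (R 4.3.3, lmFit and eBayes, two-sided, no covariate) with Benjamini-Hochberg adjustment over all genes and a threshold of 0.05. Errors beside differences are standard errors of that fit, and errors beside means are SDs over 3 arrays. The procedure was tested on simulated data. The members and lists were chosen with earlier results of these data known. Named are all members past the threshold (values per array for those of at least 1 on the log2 scale), a fixed set of others (CDH1, CDH2, L1CAM, NCAM1, the neurexins, NLGN1 and NLGN3), the 5 uncalled of largest difference, up to 5 called genes per partner list and up to 3 per list of other cells. The remaining members are named to account for each family, and GATA3, HAND2, TH, CHGA, NEFL, GFAP and SOX10 to check the cell type. ZEB1, SNAI1 and SNAI3 are named as relatives of the called ZEB2 and SNAI2.

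Deviations from the group mean were correlated between arrays of 1 number (r across genes 0.229, 0.162 and 0.133 for replicates 1, 2 and 3, and -0.138 to -0.0165 for different numbers). Centring on the group mean makes values for different numbers negative on average wherever those for the same number are positive. The negative values are therefore no separate evidence of pairing. The titles also give same-numbered arrays 1 passage. The main fit nevertheless left this pairing out, and a fit blocked on the replicate number was an alternative. Only the same-numbered differences and that alternative use the pairs. Also tried were median centring, quantile normalization, a dim filter, arrays left out, array weights, the mean of probe sets, a trended robust prior, scaling to the 4 hybridization controls and loess removal of a brightness trend.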

Additional observations from a re-analysis of the deposited data

How the results depend on the processing

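The 13 falls kept their direction and call under the replicate block, quantile normalization, median centring, array weights, the mean of probe sets, the trended robust prior and removal of the brightness trend, under which 13 to 16 adhesion genes were called. In the fit with the replicate block, which pairs arrays of the same passage, 14 adhesion genes were called, and LRRTM2 (0.95, adjusted p = 0.0173) was the only change of call among the 60. Under the dim filter, CNTN3 and LRRTM1 were not tested and 11 of the 13 calls held. Leaving out 1 array gave 2271 to 5467 called genes, 8 to 15 called adhesion genes, 8 to 11 families with a call and 21 to 54 partner calls. Leaving out both arrays of a number gave 1249, 1021 and 4498 genes for replicates 1, 2 and 3, 7, 7 and 15 adhesion genes, 6, 7 and 11 families, and 17, 11 and 44 partner calls, in fits with fewer samples. NRCAM lost its call without both arrays of number 1 or 2 (adjusted p = 0.0529 and 0.0911) and CDH24 without both of number 1 (adjusted p = 0.0798). Scaling to the hybridization controls adds a constant to every difference and gave 12587 called genes, 37 adhesion genes and 87 partners. There CADM1 (0.030) and TENM3 (0.20) turned sign without passing, CDH24 (-0.29), CNTN3 (-0.41), CNTNAP2 (-0.34) and L1CAM (-0.33) no longer passed, and uncalled genes of negative difference passed as higher, CDH3 0.77, CDH6 0.71, CDH7 0.59, CDH10 0.73, CDH20 0.70, CDH17 0.80, CDH23 0.72, CNTNAP3 0.80, CNTNAP3B 0.72, CNTNAP3P2 0.84, CNTNAP5 0.64, NFASC 0.65, NLGN1 0.82, LRFN4 0.82, LRFN5 0.75 and CADM3 0.75, all under the 0.88 of the median gene. The number of arrays and the signals near the negative controls limit what could be detected for the 45 dim genes.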
